A study of Mus musculus with 2 samples.

Results

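Potassium channel genes are the 95 genes, of 31053 listed, whose symbol starts with Kcn, leaving out 4 such symbols that end in Rik, os, or os and a digit. They comprised 40 pore-forming subunits of voltage-gated channels, 12 auxiliary subunits of those channels, 15 inward rectifiers, 14 two-pore domain (K2P) leak channels, 8 calcium- or sodium-activated pore-forming subunits, 4 beta subunits of the BK channel, and 2 others. The 2 others were Kcnq1ot1, a long noncoding antisense RNA of the Kcnq1 locus, and Kcnrg, which codes for a regulator rather than a pore. Their RNA was followed across the cell types of the mouse dentate gyrus, the part of the hippocampus where neurons are born after birth, with and without the histone demethylase gene Kdm6b.

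The dentate gyri of mice at postnatal day 2 were dissociated with papain and profiled by droplet single-cell RNA sequencing, which counts unique molecular identifiers (UMIs) at the 3′ ends of transcripts. The library labelled WT came from littermate controls and is here called control. The other was labelled Kdm6b KO and came from mice carrying hGFAP-Cre, a Cre driven by the human GFAP promoter, on the floxed background Kdm6bF/F. Each library pooled 2 animals, and the full genotype and sex of the littermates were not given in the sources used here. A single library per genotype allowed no test between them. Every interval below is a 95% interval that covers counting error only, and every difference is one between these libraries.

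Potassium channels set the resting potential of a cell and shape how it fires. K2P channels and inward rectifiers carry current near rest and are prominent in glia and vessel cells, whereas voltage-gated and calcium-activated channels repolarise neurons after an action potential. Auxiliary subunits such as the Kcnip, Kcnab and Kcne proteins alter the surface level and gating of the pores they join.

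After filtering, 2956 control and 1936 KO cells remained, with 31450778 and 25519532 UMIs and a median of 7340 and 9243 UMIs per cell. Levels are given as UMIs of a gene per 1000000 UMIs of the same cells and library (CPM), with the control value first where a pair is given without names. Kdm6b itself was at 57.9 CPM (interval 55.3 to 60.7) in control and 57.3 (54.4 to 60.3) in KO cells. By class it was at 71.2 and 69.8 in radial glia-like, 40.2 (36.7 to 44.0) and 25.3 (21.9 to 29.1) in pyramidal neuron-like and 98.8 (90.4 to 108) and 121 (111 to 131) in endothelial-like cells, and at 41.8 (31.7 to 54.2) and 11.8 (4.74 to 24.3) in the unnamed cluster 7. The sources used here do not say which exons are floxed, so 3′ counts of Kdm6b may lie outside the deleted part and do not check the labels. Prm1, a sperm protamine gene, had 10 control and 11098 KO UMIs. In the KO library it was at 7133 CPM in astrocyte-like, 3274 in radial glia-like, 7.62 in pyramidal neuron-like and 6.41 in endothelial-like cells. Whether Cre had acted in the cells of a given class was not tested, so KO cells means cells of the KO library. In the control library 988 cells (33.4%) held UMIs of Y-linked genes and none of Xist, against 0 KO cells, which allows a share of up to 0.155%. The libraries shared 9 barcodes, 6 of them among the cells kept.

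The potassium channel genes gave 35965 control and 28147 KO UMIs, which was 1144 and 1103 CPM. Across both libraries 5 members had no UMI (Kcna10, Kcnmb3, Kcnj1, Kcnk16 and Kcng3), 24 had 1 to 99, and 66 had at least 100. Cells were grouped by clustering without these genes and named from marker lists, so a name such as "pyramidal neuron-like" describes a cluster's markers and may differ from the study's own annotation.

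The summed level separated neurons and mural cells from endothelium, fibroblasts and microglia. It was 2158 CPM (2024 to 2299) in the 55 control granule neuron-like cells and 1714 (1551 to 1890) in the 31 KO ones. In the mural-like cells, named from markers of cells on vessel walls, it was 2132 (1799 to 2509) in 15 control and 1943 (1771 to 2127) in 53 KO cells. Cajal-Retzius cell-like cells, transient neurons that secrete reelin, stood at 1929 (1850 to 2010) and 2132 (1982 to 2290). The lowest level was that of the microglia-like cells, 236 (170 to 319) and 368 (277 to 479). Granule neuron-like cells were above Cajal-Retzius cell-like cells in the control and below them in the KO library, so these classes had no common order, whereas all 3 lay above the remaining named classes in both.

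**Figure D1:**
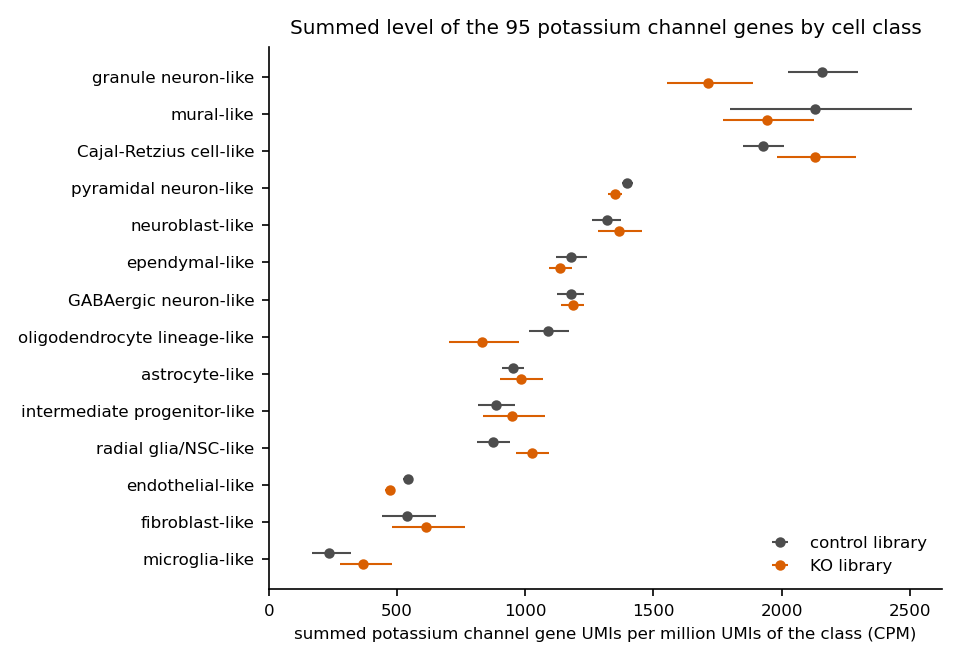
Summed UMIs of the 95 potassium channel genes in CPM of each cell class (horizontal axis, linear from 0), for the control library in grey and the KO library in orange; bars are exact Poisson 95% intervals and NSC stands for neural stem cell. Granule neuron-like, mural-like and Cajal-Retzius cell-like cells lie between 1714 and 2158, and microglia-like cells at 236 and 368.

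The make-up of that sum differed by class. Inward rectifiers gave 86.9% of the control and 81.3% of the KO potassium channel UMIs in mural-like cells, and 61.6% and 56.7% in endothelial-like cells, but 2.8% and 2.4% in GABAergic neuron-like cells. In endothelial-like cells Kcnj8 gave 1601 of the 1742 control and 1106 of the 1252 KO inward rectifier UMIs. Nearly all of these lay in cluster 1, which also held mural markers, whose part in the share was not tested. Voltage-gated pore-forming subunits gave 50.05% and 50.6% in GABAergic neuron-like and 42.02% and 42.5% in pyramidal neuron-like cells. Auxiliary subunits took 40.7% and 34.8% in astrocyte-like cells, where Kcnip3 and Kcne1l were the main sources. K2P channels gave 38.0% and 30.8% in neuroblast-like cells and 34.4% and 33.2% in ependymal-like cells. These are shares of 3′ UMIs and are not corrected for transcript length. In radial glia-like cells, named from a joint marker list of radial glia and neural stem cells, the K2P share was 14.4% for control and 28.8% for KO cells. That class joins 2 clusters in different proportions, described below, and within them the share was 6.39% and 4.65% in cluster 12 and 26.6% and 34.0% in cluster 13.

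**Figure D2:**
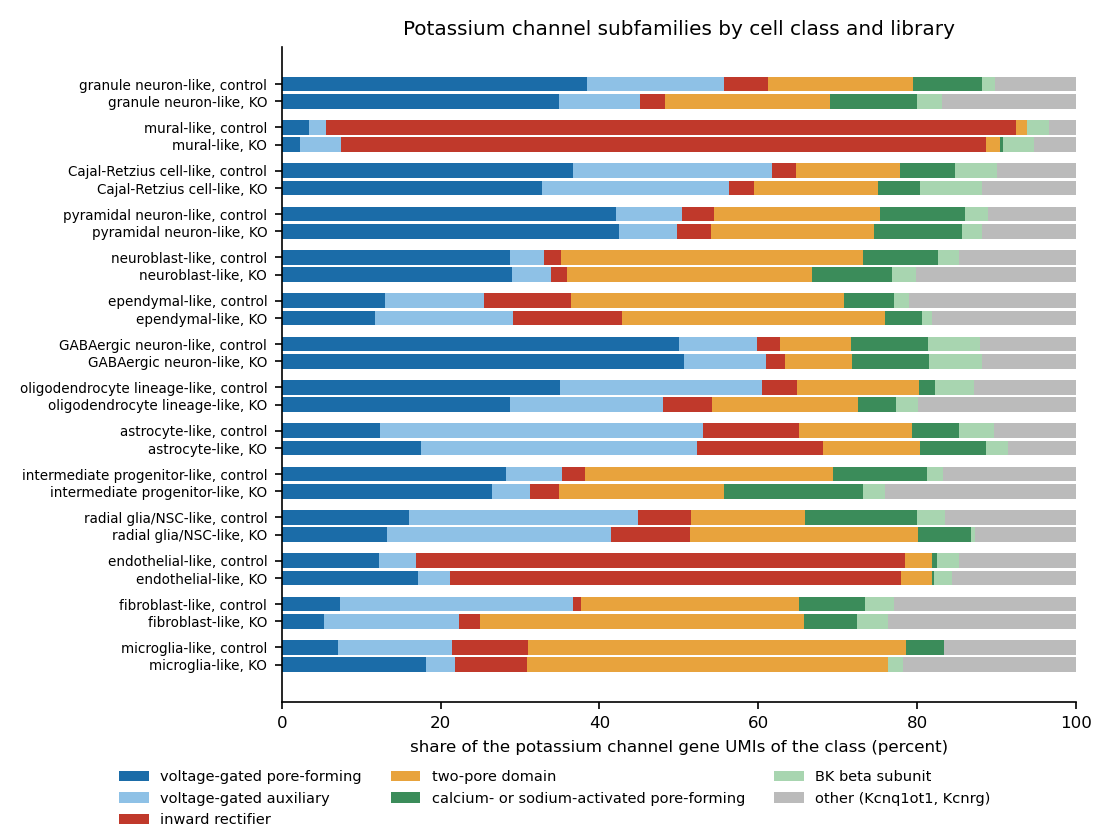
Share of the potassium channel UMIs of each cell class (horizontal axis, percent) taken by each subfamily, with 1 bar per class and library. Inward rectifiers fill 86.9% and 81.3% of the mural-like bars, and the K2P share of the radial glia-like bars is 14.4% (control) and 28.8% (KO), over 2 clusters whose weights differ between the libraries.

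For 42 of the 66 members with at least 100 UMIs the class with the highest level was the same in both libraries, and for 15 it stood at least 2-fold above the next class in each. In Xist-positive cells lacking Y-linked UMIs, 7 of the 15 did so. Since the clusters came from the same cells, these are descriptions with no test. Of the 15, 5 led in granule neuron-like cells, 4 in Cajal-Retzius cell-like, 3 in endothelial-like, 2 in mural-like and 1 in GABAergic neuron-like cells. None led in a glial class.

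Kcnj8 codes for Kir6.1, the pore of the vascular ATP-sensitive potassium channel, and lies at chr6:142564837-142571614 on the minus strand (GRCm38). It stood at 1853 CPM in control and 1555 in KO mural-like cells, from 126 and 376 UMIs. The next class was endothelial-like, at 308 and 236, so the lead was 6.02-fold and 6.58-fold. In GABAergic neuron-like cells Kcnj8 had 0 and 1 UMI, and in pyramidal neuron-like cells it was at 1.02 and 0.388 CPM. Abcc9, whose product SUR2 is the regulatory partner of Kir6.1, was at 676 and 773 CPM in mural-like and at 147 and 156 in endothelial-like cells. The mural markers Acta2 and Tagln were at 0 CPM in control mural-like cells and at 157 and 128 in the KO ones. Kcnmb1, the smooth muscle beta subunit of the BK channel (chr11:33963013-33973641, plus strand), also led in mural-like cells, but on 4 and 13 UMIs (58.8 and 53.7 CPM). It lies within Kcnip1 on the other strand, and whether counting used strand is not given in the sources used here. The 250 bases before the starts of both mural genes are shown because they led in the same class, with that of Kcnj10, the glial inward rectifier described below, for comparison. They are RefSeq promoters of build GRCm38.p6, at chr6:142571615-142571864 (minus strand), chr11:33962763-33963012 (plus strand) and chr1:172340960-172341209 (plus strand). Capitals mark the E-box CANNTG and the GC box GGGCGG on either strand.
Kcnj8: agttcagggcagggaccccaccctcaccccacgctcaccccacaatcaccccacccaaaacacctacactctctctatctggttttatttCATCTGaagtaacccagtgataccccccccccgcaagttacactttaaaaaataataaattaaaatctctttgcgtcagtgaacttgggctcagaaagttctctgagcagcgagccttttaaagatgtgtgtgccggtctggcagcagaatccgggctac
Kcnmb1: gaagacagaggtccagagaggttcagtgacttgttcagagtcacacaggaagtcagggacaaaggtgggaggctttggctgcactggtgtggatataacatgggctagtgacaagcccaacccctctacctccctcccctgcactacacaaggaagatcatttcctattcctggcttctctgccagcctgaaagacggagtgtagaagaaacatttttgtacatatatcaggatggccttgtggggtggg
Kcnj10: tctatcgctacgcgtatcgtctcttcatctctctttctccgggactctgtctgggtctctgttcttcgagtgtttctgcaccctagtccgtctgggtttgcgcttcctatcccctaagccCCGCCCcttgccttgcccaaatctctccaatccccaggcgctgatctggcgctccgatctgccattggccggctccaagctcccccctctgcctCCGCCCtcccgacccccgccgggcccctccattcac

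Kcnj8 held 1 E-box and Kcnmb1 none of the motifs searched, which also included TATAAA and the CArG box of smooth muscle genes. Kcnj10 held 2 GC boxes and no E-box. GC content was 49.2% before Kcnj8, 50.8% before Kcnmb1 and 62.0% before Kcnj10, against a median of 52.4% over the 32851 promoters of the table and 58.4% over the 95 promoters of the 70 members it holds. An E-box occurred in 66.2% of all promoters and 67.4% of member promoters, and a GC box in 32.7% and 44.2%. TATAAA occurred in 12.4% and 3.16%, and the CArG box in 1.47% of all and in 0 member promoters. The searched motifs did not overlap in the 3 sequences shown.

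The endothelial leaders were Kcnj2, Kcna5 and Kcnq1. Kcnj2 codes for the classical inward rectifier Kir2.1 and stood at 16.9 and 21.4 CPM in endothelial-like cells, against 1.04 in the next control class, on 2 UMIs, and 6.69 in the next KO class, on 1 UMI. Kcna5, a voltage-gated subunit of the Kv1 family, was at 14.2 and 13.5. Kcnq1, whose channel also repolarises heart muscle, was at 24.0 and 33.1, from 125 and 155 UMIs, and the next class held 1 UMI in each library. Kcnq1ot1 lies within Kcnq1 on the other strand and was at 78.2 and 73.3 in the same cells.

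The leaders of Cajal-Retzius cell-like cells were 4 genes of neuronal channels. Kcnh7, an Erg-type voltage-gated subunit, was at 277 CPM (248 to 309) and 289 (236 to 351), 8.87-fold and 9.74-fold above the next class. Kcnip2, a calcium-binding auxiliary subunit of Kv4 channels, was at 295 (264 to 327) and 337 (279 to 404), with granule neuron-like cells next at 130 and 76.4. Kcnk9, the acid-sensitive leak channel TASK-3, was at 48.1 and 65.2, from 56 and 23 UMIs, against 2.20 and 4.45 in the next class. Kcnt1, a sodium-activated channel, led on only 13 and 3 UMIs. For each of the first 3 genes the intervals of the libraries overlapped.

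Granule neuron-like cells, the output neurons of the dentate gyrus, led for genes that include Kcna1, Kcnab2, Kcnt2 and Kcnf1. Kcna1, a Kv1 subunit of axons, was at 159 (124 to 200) and 102 (65.2 to 152), and Kcnab2, an auxiliary beta subunit of Kv1 channels, at 53.6 (34.4 to 79.8) and 33.9 (14.7 to 66.9). Kcnf1, a silent subunit that joins other Kv pores, had 12 and 5 UMIs. These 4 were lower in the KO library, with overlapping intervals for each, on 55 and 31 cells. In the same cells Kcnd2, a Kv4 pore, had 38 and 3 UMIs, and its auxiliary subunit Kcnip1 had 31 and 5. Kcnc1, a Kv3 subunit, led in GABAergic neuron-like cells, at 108 (93.1 to 125) and 114 (100 to 129), where Kv3 channels serve fast firing, and stood at 53.6 and 33.9 in granule neuron-like cells. Kcnc2 was likewise highest in the GABAergic neuron-like class in the control (38.2, with 37.8 in KO), close to the Cajal-Retzius cell-like level of 29.2 and 39.7.

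Glial and progenitor members had broader patterns. Kcnj16, which partners Kcnj10 in the Kir4.1/Kir5.1 channel, was at 32.3 and 32.7 CPM in ependymal-like and 29.2 and 20.02 in astrocyte-like cells. Kcnj10 was at 89.3 and 118 in ependymal-like, 76.6 and 127 in astrocyte-like, 51.9 and 93.1 in radial glia-like and 27.5 and 39.8 in oligodendrocyte lineage-like cells, and had 2 and 4 UMIs in all endothelial-like and 4 and 2 in all pyramidal neuron-like cells. Its level was higher still in the unnamed cluster 18, at 113 and 209. Kcnk2 was at 297 and 298 in ependymal-like, 170 and 247 in Cajal-Retzius cell-like and 99.5 and 98.6 in pyramidal neuron-like cells, and at 427 and 468 in cluster 18. Kcnk13, a K2P channel of microglia, was at 56.2 and 60.2 in microglia-like cells, on 10 and 9 UMIs. Kcnj13, known from the choroid plexus, had at most 2 UMIs in any class of either library. Kcnk1, the leak channel TWIK-1, was highest in neuroblast-like cells (361 and 270) and next in granule neuron-like cells (290 and 255). Kcnq3, a subunit of the M-current channel, was highest among named classes in neuroblast-like cells (58.1 and 73.4), with pyramidal neuron-like cells at 49.5 and 47.7. Within the neuroblast-like class Kcnq3 was at 123 and 136 in cluster 8 and only at 11.8 and 22.6 in cluster 2. Kcnma1, the BK pore, was at 101 and 89.1 in granule neuron-like, 98.7 and 82.2 in Cajal-Retzius cell-like and 80.2 and 88.4 in pyramidal neuron-like cells.

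**Figure D3:**
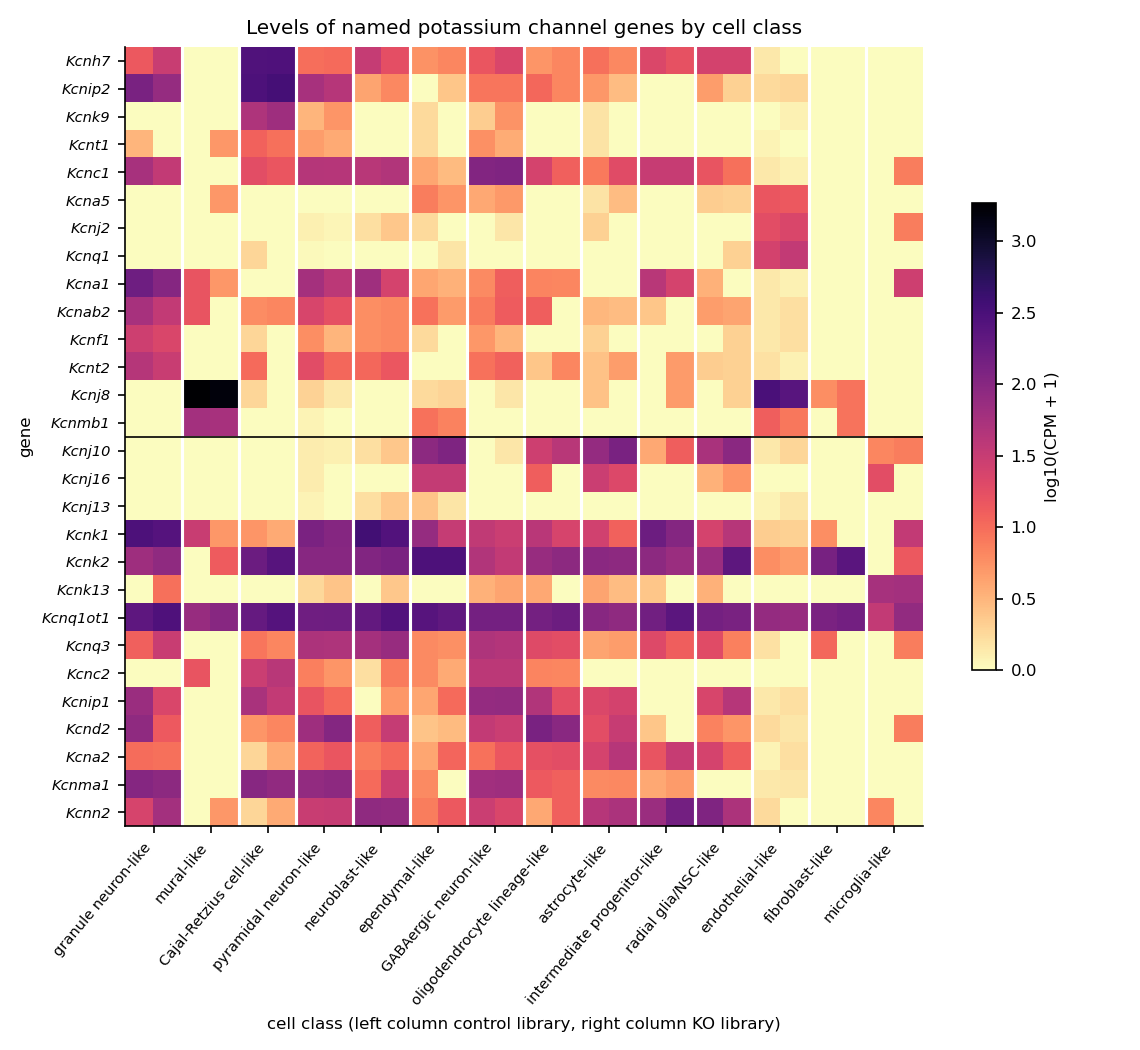
Levels of members that led a class (above the line) and of other members fixed by name, as log10 of CPM plus 1 on a colour scale, with the control library in the left and the KO library in the right column of each class. Rows may be compared along a gene and not between genes; Kcnj8 is darkest in mural-like cells, at 1853 and 1555 CPM.

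Between the libraries, 7 classes chosen for comparison were compared, each with at least 50 cells on both sides. Ependymal-like cells and the unnamed clusters 7 and 9 also had that many and were not among them; the ependymal values follow those of the astrocytes. A gene was counted only with at least 50 UMIs in the class, and called higher or lower past 1.5-fold. In 5 of the 7 classes the log2 ratio of the summed level lay between -0.05 and 0.10. Among these only the pyramidal neuron-like interval excluded 1, with 1398 CPM in control and 1350 in KO cells (ratio interval 0.942 to 0.990). Its direction was reversed in 2 of 15 alternatives. The summed level was higher in KO radial glia-like cells, at 1026 against 874 CPM (ratio interval 1.06 to 1.29), and lower in KO endothelial-like cells, at 472 against 544 (0.821 to 0.918). In radial glia-like cells the KO minus control difference was 152 CPM for the sum and 149 for Kcnk2, and without that gene the sums were 805 and 808. Within cluster 13 of that class the log2 ratio of the sum was 0.061. In endothelial-like cells the KO minus control difference was -71.7 CPM for the sum and -71.3 for Kcnj8, and without that gene both sums were 236. The sums without Kcnk2 or Kcnj8 are net values, in which higher and lower members offset each other. In radial glia-like cells these included Kcnj10 (51.9 and 93.1) and Kcnn2 (115 and 49.7).

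In radial glia-like cells 4 of 9 measured members were higher and 1 was lower in the KO library, where 8.67% of all genes measured there were higher and 9.14% lower. The median log2 ratio was 0.33 for the members and -0.06 for all genes. Kcnk2, the mechanically gated K2P channel TREK-1 (chr1:189207930-189402273, minus strand), had 57 control and 206 KO UMIs, or 68.8 and 218 CPM (log2 ratio 1.65; ratio interval 2.35 to 4.32). Kcnj10, which codes for the glial inward rectifier Kir4.1 (chr1:172341210-172374085, plus strand), had 43 and 88 UMIs, or 51.9 and 93.1 CPM (0.83; 1.23 to 2.65). Kcnip1, an auxiliary subunit of Kv4 channels, had 18 and 39 UMIs (0.90; 1.06 to 3.52), and Kcnk1 had 19 and 39 (0.83; 1.01 to 3.29). Kcnn2, the small-conductance calcium-activated channel SK2, was lower, with 95 and 47 UMIs or 115 and 49.7 CPM (-1.20; 0.299 to 0.621).

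The class joined 2 clusters whose weights differed between the libraries. Cluster 12 held 134 of the 198 control and 47 of the 163 KO cells, and cluster 13 held 64 and 116. Cluster 13 had 9 detected markers of radial glia and 8 of astrocytes. The radial glia markers summed to 16535 and 18751 CPM in it and to 25340 and 21631 in astrocyte-like cluster 3. Kcnk2 was at 15.7 (control) and 26.9 (KO) CPM in cluster 12 and at 187 and 290 in cluster 13, so its log2 ratio was 0.80 (ratio interval 0.541 to 5.16) and 0.62 (1.13 to 2.17) within them, against 1.65 over the class. Kcnj10 was at 43.7 and 57.7 in cluster 12 and 70.2 and 107 in cluster 13, and both intervals of the ratio held 1. Kcnip1 had log2 ratios of -0.24 and 0.17 within the clusters. Kcnn2 was lower in both, at 128 and 49.99 in cluster 12 (-1.31; 0.199 to 0.712) and 85.9 and 49.6 in cluster 13 (-0.80; 0.328 to 1.04). Ependymal markers, 9 of 10 with UMIs in each library, summed to 165 CPM in the control and 469 CPM in the KO class, against 9385 and 7969 in ependymal-like cells, where Kcnk2 was at 297 and 298. Within cluster 13 their sum was 480 and 632 CPM. Their part in the Kcnk2 difference was not tested.

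**Figure D4:**
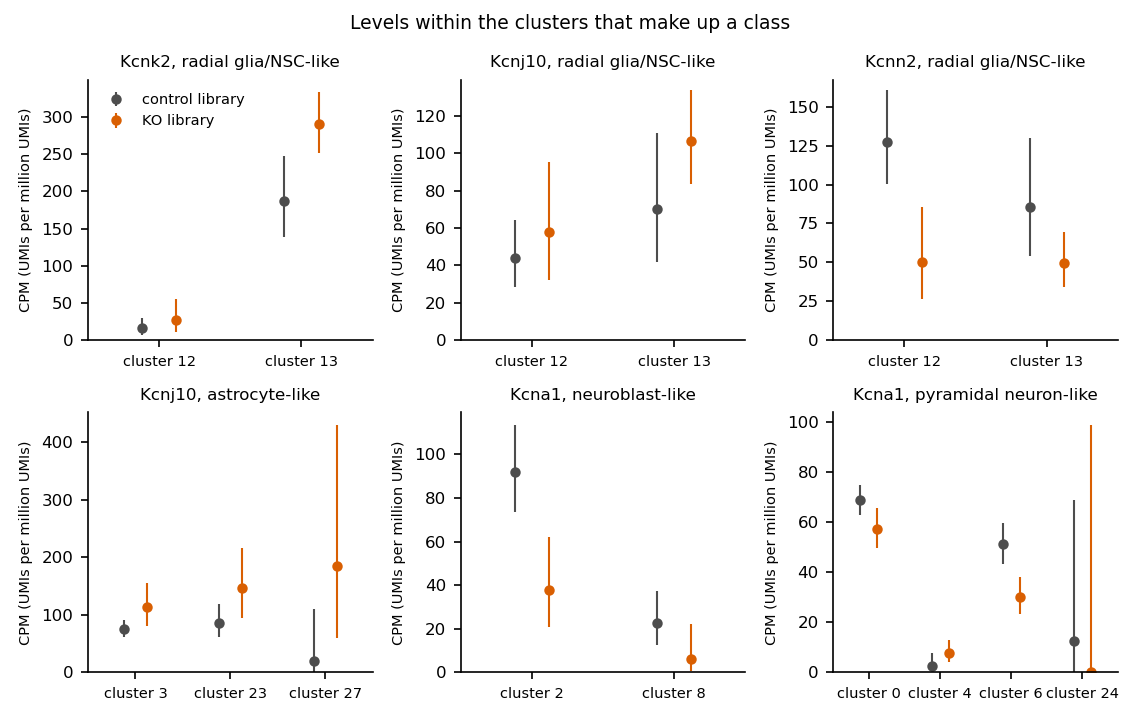
Level in CPM (vertical axes, each from 0) of 4 members within the clusters that make up a class, for the control library in grey and the KO library in orange, with exact Poisson 95% intervals. Kcnn2 is lower in the KO library in both radial glia-like clusters, with a ratio interval that holds 1 in cluster 13. Kcnj10 is higher in the KO library in all 3 astrocyte-like clusters, with a ratio interval that holds 1 in cluster 23.

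In astrocyte-like cells 3 of 12 members were higher and 1 lower, where 7.21% of all genes were higher and 6.80% lower, and the medians were -0.07 and -0.01. Kcnj10 had 147 and 70 UMIs in 295 control and 84 KO cells, or 76.6 and 127 CPM (log2 ratio 0.74; 1.23 to 2.23). It was higher in the KO library in each of the 3 astrocyte-like clusters, at 75.6 and 114, 86.4 and 146, and 19.8 and 185, the last on 1 and 5 UMIs. The ratio interval was 1.02 to 2.18 in cluster 3 and held 1 in cluster 23 (0.980 to 2.88). Kcna2, a Kv1 subunit, was at 22.9 and 41.9 (0.88; 1.05 to 3.09). By cluster it was at 23.1 and 54.0 in cluster 3 (1.24; 1.26 to 4.24) and had 11 and 3 UMIs in cluster 23 (-0.35; 0.126 to 2.66) and 0 and 1 UMI in cluster 27. Kcnd2, the Kv4 subunit of the A-type current, passed 1.5-fold with 33 and 17 UMIs and an interval that held 1. Kcnk1 was lower, with 49 and 6 UMIs or 25.5 and 10.9 CPM (-1.12; 0.1497 to 0.999). Kcne1l, an auxiliary subunit on the X chromosome, was at 176 and 131 (-0.41; 0.570 to 0.965), under 1.5-fold.

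In the 93 control and 159 KO ependymal-like cells, the ciliated cells that line the ventricles, none of 10 members was higher and 2 were lower, where 6.36% of all genes were higher and 4.32% lower. Kcnk1 had 99 and 67 UMIs, or 74.3 and 31.7 CPM (-1.22; 0.308 to 0.588), and Kcnn4, a calcium-activated channel, had 34 and 34 UMIs and an interval that held 1 (-0.66; 0.381 to 1.05). Under 1.5-fold, Kcne1l was higher, at 112 and 165 CPM from 149 and 348 UMIs (0.56; 1.21 to 1.80), as was Kcnj10, at 89.3 and 118 CPM (0.40; 1.06 to 1.66). Kcnj10 was thus above the control in ependymal-like, astrocyte-like and radial glia-like cells, and Kcne1l stood on opposite sides in ependymal-like and astrocyte-like cells, a difference that was not tested.

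Intermediate progenitor-like cells came from cluster 10 alone, which had 8 detected markers of that type and 7 of neuroblasts. They had 5 members with enough UMIs. Of these 2 were higher and 1 lower, where 5.20% of all genes were higher and 10.8% lower. The medians were 0.40 and -0.05. Kcnn2 was higher here, with 47 and 37 UMIs in 149 and 54 cells, or 69.6 and 143 CPM (1.04; 1.30 to 3.23). Kcnq1ot1 was at 148 and 228 (0.63; 1.10 to 2.14), and Kcnk1 at 164 and 104 (-0.64; 0.400 to 0.973). Kcnn2 thus stood on opposite sides in radial glia-like and intermediate progenitor-like cells, a difference between classes that was not tested.

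In neuroblast-like cells, young neurons in 2 clusters, 1 of 13 members was higher and 3 were lower, where 4.27% of all genes were higher and 6.96% lower, and the medians were 0.18 and -0.04. Kcna1 had 101 and 17 UMIs in 416 and 148 cells, or 63.1 and 23.6 CPM (-1.39; 0.209 to 0.628), and was lower in cluster 2, marked by Prox1 and Gal, at 92.1 and 37.6, and in cluster 8, marked by Sema3c, at 22.5 and 6.20. Kcnb2, a Kv2 subunit, was at 45.0 and 69.3 (0.63; 1.05 to 2.24), at 49.2 and 100 in cluster 2 and 39.1 and 31.0 in cluster 8. Kcnh7 also passed 1.5-fold and had 50 and 12 UMIs and an interval that held 1 (-0.87; 0.258 to 1.01). Under 1.5-fold, Kcnk1 was at 361 and 270 (-0.42; 0.633 to 0.881), and Kcnq1ot1 at 194 and 272 (0.48; 1.16 to 1.68). Kcnk1 was lower in both clusters, with an interval that held 1 in cluster 8 (0.590 to 1.14), and Kcnq1ot1 was higher in both. Kcnk1 had enough UMIs in 8 classes or clusters and its KO level was below the control in 7 of them, radial glia-like cells being the exception, with intervals that excluded 1 in 6 of the 7. The radial glia-like value was not split by cluster.

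Pyramidal neuron-like cells gave the deepest view, with 53 members measured in 668 and 353 cells. Of these 5 were higher and 7 lower, where 4.10% of all genes were higher and 5.28% lower, and the medians were -0.05 and -0.02. Kcnd2 had 756 and 800 UMIs, or 64.0 and 103 CPM (0.69; 1.46 to 1.79). Higher levels were also seen for 3 K2P genes, Kcnk12 (5.67 and 11.8; 1.49 to 2.88), Kcnk3, which codes for TASK-1 (2.03 and 5.17; 1.496 to 4.41), and Kcnk9 (ratio interval 1.12 to 3.37). Kcnj12, an inward rectifier, passed 1.5-fold with an interval that held 1. On the lower side stood Kcng1, a silent Kv subunit, with 150 and 44 UMIs (-1.15; 0.312 to 0.630), Kcnt2 with 205 and 77 (-0.80; 0.435 to 0.748) and Kcna1 with 676 and 289 (-0.62; 0.566 to 0.750). The other 4 lower members were Kcnf1, Kcns2, Kcnc2 and Kcnip1, with log2 ratios from -1.13 to -0.60.

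These neurons fell into 4 clusters in different shares, cluster 0 holding 337 control and 131 KO cells, cluster 4 131 and 130, and cluster 6 159 and 78. Kcnd2 was at 66.4 and 107 CPM in cluster 0 and 23.6 and 54.1 in cluster 6, but at 161 and 162 in cluster 4. Kcna1 was lower in cluster 0 (68.7 and 57.2) and cluster 6 (51.1 and 30.1), and in cluster 4 it had 3 and 14 UMIs. Kcng1 and Kcnt2 were also lower in clusters 0 and 6 and had 2 and 7, and 1 and 6, UMIs in cluster 4. Kcnk12 was at 5.90 and 15.3 in cluster 0, and its intervals in clusters 4 and 6 held 1. Kcnk3 was at 2.68 and 6.97 in cluster 0 and had 1 control UMI and no KO UMI in cluster 6.

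In GABAergic neuron-like cells 1 of 21 members was higher and none was lower, where 3.57% of all genes were higher and 3.93% lower, and the medians were 0.07 and -0.03. The one past 1.5-fold was Kcnh1, an Eag-type subunit, with 15 and 36 UMIs and a ratio interval of 0.969 to 3.57. Over the whole class no member had an interval that excluded 1. Kcnc1 (log2 ratio 0.07), Kcnip1 (0.02) and Kcnma1 (0.09) lay close to equal in 150 control and 160 KO cells. Within cluster 14, which held 81 and 92 of these cells, Kcnk2 had 53 and 48 UMIs, or 56.4 and 32.4 CPM (-0.80; 0.380 to 0.865). Kcnn2 had 21 and 11 UMIs there, under the minimum of 50, or 22.4 and 7.42 CPM (-1.56; 0.145 to 0.720). Among the members split by cluster in this class, only Kcnk2 and Kcnn2 had an interval that excluded 1. The share of all genes past 1.5-fold in cluster 14 was not recorded. In cluster 16 Kcnk2 was at 31.5 and 36.5 (0.21) and Kcnn2 at 36.8 and 48.3 (0.39), with intervals that held 1.

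In endothelial-like cells none of 9 members was higher and 2 were lower, where 2.44% of all genes were higher and 3.32% lower, and the medians were -0.08 and -0.02. Kcne4, an auxiliary subunit, was at 14.2 and 8.97 CPM (-0.66; 0.422 to 0.934), and Kcnmb1 passed 1.5-fold with an interval that held 1. Both were at higher levels in mural-like cells, Kcne4 at 29.4 and 78.6 CPM and Kcnmb1 at 58.8 and 53.7. Kcne4 had 74 and 41 UMIs in cluster 1 and 0 and 1 in cluster 20. Kcnj8 had 1601 and 1106 UMIs (-0.38; 0.711 to 0.830), under 1.5-fold. In cluster 1, which held nearly all of its UMIs, the ratio was smaller (324 and 269; -0.27), and in cluster 20 Kcnj8 was at 7.44 and 14.9. The mural markers Rgs5, Vtn and Higd1b were at 21.4%, 12.3% and 17.3% of their mural-like level in the control endothelial-like cells and at 16.3%, 11.3% and 18.4% in the KO ones, and Kcnj8 at 16.6% and 15.2%. All 9 mural markers had UMIs there and summed to 4135 and 3534 CPM, and their part in the Kcnj8, Kcne4 and Kcnmb1 values was not tested. Kcnq1 was higher (0.46; 1.08 to 1.76). Whether Kdm6b was deleted in the endothelial-like cells was not tested.

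**Figure D5:**
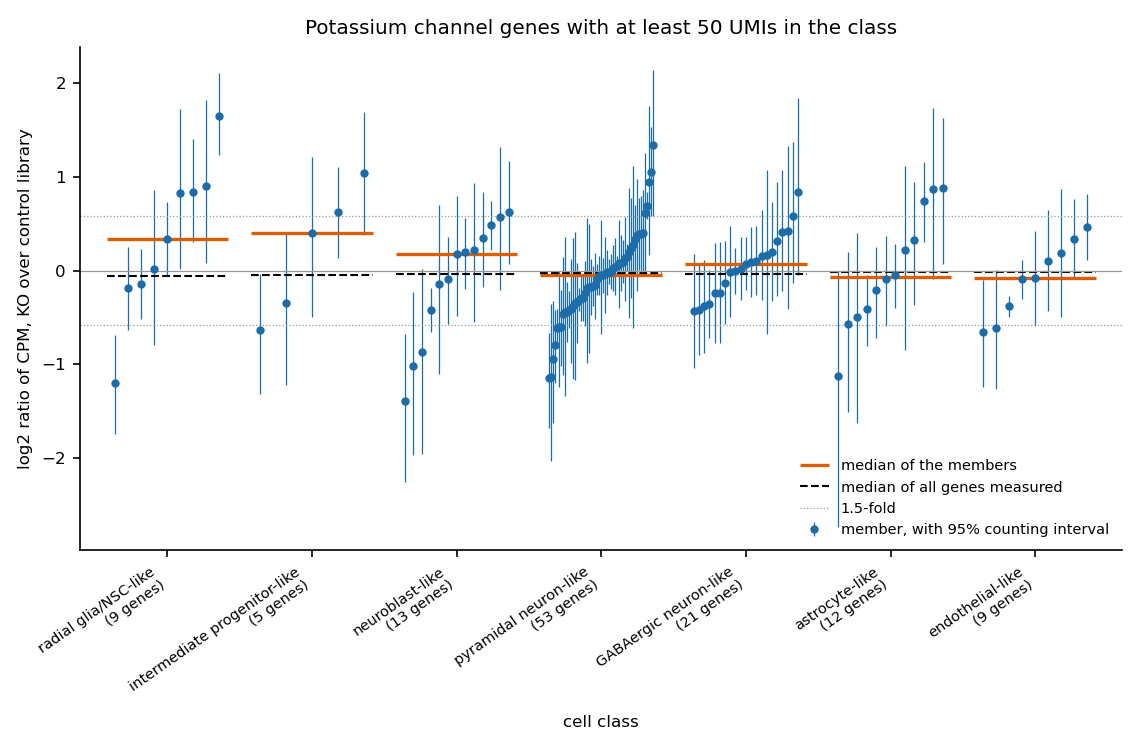
Log2 ratio of KO over control CPM (vertical axis) for each member with at least 50 UMIs in a class, sorted within the class, with 95% counting intervals; orange lines are member medians, dashed lines the medians of all genes measured, and dotted lines mark 1.5-fold. In radial glia-like cells 4 of 9 members lie above the upper dotted line, and in GABAergic neuron-like cells 1 of 21 does.

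A list of 29 genes whose proteins work with potassium channels held Kv partner proteins, BK gamma subunits, KATP sulfonylurea receptors, HCN channels, sodium-potassium ATPase subunits and cation-chloride cotransporters. None of the 7 measured in radial glia-like cells, 10 in neuroblast-like or 8 in astrocyte-like cells passed 1.5-fold, where 8.67%, 4.27% and 7.21% of all genes were higher and 9.14%, 6.96% and 6.80% lower. Of 18 measured in GABAergic neuron-like cells 3 were higher (3.57% of all genes), the pacemaker channel genes Hcn2 (7.05 and 22.7 CPM; 1.69 to 6.62) and Hcn3 (24.7 and 43.1; 1.20 to 2.57) and the scaffold gene Dlg4 (62.9 and 102; 1.28 to 2.06). Of 23 in pyramidal neuron-like cells, Dpp10, a Kv4 partner, was higher (5.25 and 9.30), and 1 gene was lower, where 4.10% and 5.28% of all genes were. Cntn2 was lower among 4 measured in intermediate progenitor-like cells (10.8% of all genes), with an interval that held 1. Atp1b1 was lower among 12 in endothelial-like cells (20.9 and 13.9), where 3.32% of all genes were.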

How the data were processed

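The deposited matrices held raw UMI counts per gene and cell. The submitters' processing notes name Cell Ranger 3.0.2, Seurat 3 and build mm10, with no role given. Barcodes with at least 500 genes, 1000 UMIs and at most 10% mitochondrial UMIs were kept (3029 of 3555 control, 1967 of 2292 KO). Scrublet's own threshold marked 12 and 7 of these, under 0.5%, so it was judged not to have worked, and the cells with the highest scores were removed at 0.8% per 1000 cells (73 and 31). Cells were clustered with scanpy 1.11.5 (2000 variable genes without the members and partner genes, 30 components, resolution 1) and named from marker lists. A cluster took the type with the most detected markers (at least 3, no tie) if no other type had more among its 10 leading genes; with none of its own there, it needed at least 2 more detected markers than the next type. A cluster led by at least 3 cortical hem genes stayed unnamed. This rule was revised after the clusters were seen. Clusters 7, 9, 11, 18 and 28 stayed unnamed: cluster 11 held 25 control and 161 KO cells, and cluster 18, the one led by cortical hem genes, 26 and 72.

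Counts were summed per class and library and scaled per 1000000 UMIs (CPM). Intervals are exact Poisson, binomial or conditional binomial at 95%, and ratios had 0.5 UMI added to each sum. A count of 0 allows up to 3 counts. The interval was tested on simulated Poisson counts. These held no variation between cells or animals, so the test does not bear on such variation in these libraries. Named genes were the leaders of a class, in each compared class up to 3 members most above and 3 most below whose interval excluded 1, and 20 fixed names. Members past 1.5-fold with an interval that held 1, and Kcnk1 in radial glia-like, Kcnk9, Kcnf1, Kcns2, Kcnc2 and Kcnip1 in pyramidal neuron-like cells, were named after their values were seen. The members and lists were chosen with earlier results of these data known. Gene positions are from GENCODE M21 (GRCm38), which matched all 95 members. TMM scaling used edgeR 4.0.16. Some genes named by these rules are not reported here, though counts and sums include them.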

Additional observations from a re-analysis of the deposited data

Results flagged for a closer look

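3 members stood past 1.5-fold on opposite sides in different classes, and these differences between classes were not tested. Kcnk1 had a log2 ratio of KO over control of 0.83 in radial glia-like cells, -1.12 in astrocyte-like cells and -0.64 in intermediate progenitor-like cells. It was not split by cluster in radial glia-like cells, whose 2 clusters differed in weight, and its astrocyte-like value rested on 49 and 6 UMIs. Kcnn2 was at 1.04 in intermediate progenitor-like cells and -1.20 in radial glia-like cells. Kcnip1 was at 0.90 in radial glia-like and -0.60 in pyramidal neuron-like cells, with -0.24 and 0.17 in the 2 radial glia-like clusters taken alone.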

How the results depend on the processing

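The direction was kept in the alternatives run for Kcnj10 in radial glia-like (0.54 to 0.91) and astrocyte-like cells (0.60 to 0.98), Kcnk2 (0.62 to 1.74) and Kcnn2 (-1.32 to -0.40) in radial glia-like cells, and Kcna1 in neuroblast-like cells (-1.59 to -0.96). Clusters with under 50 cells in either library were not run as alternatives, and there Kcnj10 was at 0.42 in radial glia-like cluster 12 and at 0.77 and 2.77 in astrocyte-like clusters 23 and 27. The share of all genes past the fold was not recorded for the alternatives or for single clusters. The counts past 1.5-fold given here therefore show how the calls depend on the setting and are not results about the members. They depended on the minimum. With at least 20 UMIs they were 10 in radial glia-like, 5 in intermediate progenitor-like, 9 in neuroblast-like, 5 in GABAergic neuron-like, 7 in astrocyte-like and 5 in endothelial-like cells. With at least 100 UMIs they were 3, 2, 0, 1 and 1 in radial glia-like, neuroblast-like, GABAergic neuron-like, astrocyte-like and endothelial-like cells. At 2-fold they were 2 in radial glia-like, 1 in intermediate progenitor-like, 2 in neuroblast-like, 4 in pyramidal neuron-like, 0 in GABAergic neuron-like, 1 in astrocyte-like and 0 in endothelial-like cells. In Xist-positive cells lacking Y-linked UMIs they were 3, 2 and 1 in radial glia-like, neuroblast-like and astrocyte-like cells, and 7 of the 15 members that led a class still did. The radial glia-like count was 3 without a filter on cells. The GABAergic neuron-like count was 3 with the stricter filter, 4 with doublets kept, 4 with cells weighted alike and 2 with TMM scaling. The intermediate progenitor-like count was 1 at resolutions 0.5 and 2. With the KO library thinned the counts were 2 in astrocyte-like and 1 in endothelial-like cells, and the latter was 1 with cells weighted alike. The summed log2 ratio of pyramidal neuron-like cells was -0.11 with the stricter filter and -0.088 with cells weighted alike, and that of GABAergic neuron-like cells was -0.11 with the stricter filter.

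Taking each cluster alone was added after seeing the data, and its counts past 1.5-fold again have no share of all genes beside them. In radial glia-like cluster 13 the summed log2 ratio was 0.061 and 3 members passed 1.5-fold. In pyramidal neuron-like cells the sum was at 0.054 in cluster 0, 0.017 in cluster 4 and -0.10 in cluster 6, with 1 member past 1.5-fold in cluster 4 and 4 in cluster 6. Kcng1 was at 0.94, Kcnt2 at 1.47 and Kcna1 at 1.40 in cluster 4, and Kcnk3 at -1.16 in cluster 6. In neuroblast-like cluster 8 no member passed (0), with Kcnb2 at -0.29. The counts were 3 in cluster 14 and 2 in cluster 16 of GABAergic neuron-like and 0 in cluster 1 of endothelial-like cells. The causes were not tested. No paired analysis was possible because each genotype had 1 library. Depth limits members in small classes, since granule neuron-like and mural-like cells had 31 and 15 cells in their smaller library.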
